A study of Mus musculus with 11 samples.

Results

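The genes described here encode secreted inhibitors of Wnt signalling: *Dkk1*, *Dkk2*, *Dkk3*, *Wif1*, *Frzb*, *Sfrp1* and *Sfrp2*. They were chosen by symbol, by a rule that uses no measured value but was set with earlier results of these data known, and all 7 were found among the 16755 genes of the deposited expression table. Messenger RNA was measured in maxillary molar tooth germs dissected from C57BL/6 embryos at E14.5, in 4 wild-type (Cilk1+/+), 4 Cilk1-/- and 3 Cilk1-/-;PCS1-MRCS1△/△ libraries. In Cilk1-/- embryos, exon 6 of *Cilk1*, which encodes a kinase of the primary cilium, had been removed in the germ line with EIIa-Cre. The third genotype, called the compound mutant, carried the same homozygous *Cilk1* deletion and in addition lacked, on both chromosomes, the PCS1-MRCS1 region that holds oral enhancers of *Shh*. Each library pooled material of n = 6 (whether germs or embryos is not stated), and the sexes were mixed. No group carried the enhancer deletion alone, so its effect apart from the *Cilk1* deletion was not measured.

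Secreted Wnt proteins bind Frizzled receptors together with the co-receptors Lrp5 and Lrp6, and the signal stabilises beta-catenin. Secreted inhibitors act outside the cell in 2 ways. Dkk1 and Dkk2 bind Lrp5 and Lrp6, assisted by the Kremen proteins, whereas Dkk3 is a divergent family member whose action on Lrp6 is less settled. Wif1, Sfrp1, Sfrp2 and Frzb (also called Sfrp3) bind Wnt proteins themselves, Wif1 through its WIF domain and the Sfrp proteins through a domain that resembles the Wnt-binding part of Frizzled. In the tooth germ, Wnt signals pass between the dental epithelium and the dental mesenchyme, and their level is known to bear on how many teeth form.

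All the genes are protein coding. In GENCODE vM21 on GRCm38, *Dkk1* lies on chromosome 19 from 30545863 to 30549665 (minus strand), *Dkk2* on chromosome 3 from 132085292 to 132180304 (plus strand) and *Dkk3* on chromosome 7 from 112116017 to 112159057 (minus strand). *Wif1* lies on chromosome 10 from 121033960 to 121100650 (plus strand) and *Frzb* on chromosome 2 from 80411970 to 80447625 (minus strand). *Sfrp1* lies on chromosome 8 from 23411502 to 23449632 (plus strand) and *Sfrp2* on chromosome 3 from 83766321 to 83774316 (plus strand).

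The sequence before *Dkk1* and before *Dkk2* is shown. The lowest *Dkk1* values were in Cilk1-/- and the lowest *Dkk2* values in the compound mutant. In the main fit, however, *Dkk1* passed the threshold used below in no comparison. The RefSeq promoter table on GRCm38.p6 matched 5 of the 7 genes. The 250 bases upstream of the start were searched on both strands for the TCF/LEF letters CTTTG followed by AA, AT, TA or TT, the GLI core CCACCCA, the TATA box TATAAA and the GC box GGGCGG. Capitals mark the matches. The *Dkk2* window is chr3:132085042-132085291 (plus strand), and it ends at the base before the start of exon 1 in both RefSeq and GENCODE. The *Dkk1* stretch of 30 bases is chr19:30549586-30549615 (minus strand), upstream of the RefSeq start, but within the 5′ UTR of exon 1 in GENCODE.
Dkk2, 250 bases upstream of the start: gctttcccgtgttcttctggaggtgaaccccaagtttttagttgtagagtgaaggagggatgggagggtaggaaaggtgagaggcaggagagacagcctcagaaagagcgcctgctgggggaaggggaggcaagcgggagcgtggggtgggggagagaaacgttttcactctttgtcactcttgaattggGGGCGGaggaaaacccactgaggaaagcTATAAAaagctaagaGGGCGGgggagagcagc
Dkk1, the stretch with its TCF/LEF matches: agCTTTGAAatcccatcccggCTTTGTTgt

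The *Dkk2* window held a TATA box 32 to 27 bases before the start, with a GC box on either side of it, and no TCF/LEF letters. The *Dkk1* window held 2 TCF/LEF matches, 117 to 111 and 98 to 92 bases before the RefSeq start, and a TATA box 54 to 49 bases before it. TCF/LEF letters occurred in 1 of the 5 windows and in 14.8% of the 32851 windows of this length in the table. GLI letters occurred in 0 of 5, against 8.11% of all windows. TATA letters were found in *Dkk1*, *Dkk2* and *Wif1* (12.4% of all windows) and GC box letters in *Dkk2*, *Frzb* and *Wif1* (32.7% of all windows). No factor binding was measured in these samples, and a match or its absence in such a window describes only its letters.

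The values are on the deposited log2 scale, probably log2(FPKM + 1), so that a difference of 1 is close to a doubling and levels are comparable between genes per length. On this scale the mean in wild type was highest for *Sfrp2*, at 7.82 ± 0.206 (SD, n = 4). It was followed by *Frzb* at 6.66 ± 0.166, *Wif1* at 5.55 ± 0.485, *Sfrp1* at 5.30 ± 0.141, *Dkk3* at 4.98 ± 0.128, *Dkk1* at 3.99 ± 0.343 and *Dkk2* at 3.98 ± 0.130 (SD, n = 4 each). *Sfrp2* ranked 181st and *Frzb* 468th among all genes in wild type, whereas *Dkk1* and *Dkk2* ranked 5183rd and 5224th. The ranges of the libraries did not overlap between *Sfrp2*, *Frzb* and the genes after them. *Wif1* overlapped both *Sfrp1* and *Dkk3*, and *Dkk1* overlapped *Dkk2*, so these neighbours did not differ beyond their spread, whereas *Sfrp1* was above *Dkk3* in every wild-type library.

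Some properties of the libraries touch the results below. *Cilk1*, listed under its older symbol Ick, was between 3.45 and 3.60 in wild type, 2.72 and 2.86 in Cilk1-/- and 2.60 and 2.67 in the compound mutant, lower in every mutant library although only exon 6 was deleted. *Shh* was 3.66, 4.02 and 6.51 in compound mutant replicates 1 to 3, against 4.18 to 5.18 in wild type, so replicate 3 exceeded every other library in *Shh* despite its enhancer deletion. The first principal component of all genes (41.6% of the variance) set compound mutant replicate 1 at -48.5, with the other 10 libraries between -6.63 and 11.2. The second component (21.8%) set compound mutant replicate 3 at 28.9, with the other 10 between -13.5 and 11.8. All 6 epithelial and all 6 mesenchymal dental markers were above 0 in every library. Their summed linear levels were, in wild type, 807 to 1019 (epithelium) and 647 to 746 (mesenchyme), and in Cilk1-/-, 860 to 1072 and 580 to 695. In compound mutant replicates 1 to 3 the epithelial sums were 471, 696 and 1104 and the mesenchymal sums 400, 694 and 455. Cartilage markers (6 of 7 listed) summed to 625, 44.0 and 49.5 in these libraries, against 23.7 to 29.95 in wild type and 26.3 to 37.9 in Cilk1-/-. Neuronal markers (7 of 7 listed) summed to 193, 32.8 and 61.1, against 17.0 to 22.7 in wild type and 28.1 to 30.7 in Cilk1-/-, and glial markers (6 of 6 listed) to 40.4, 19.6 and 20.6, against 17.6 to 19.9 and 20.8 to 23.7. Skeletal muscle markers (7 of 7 listed) summed to 4.15, 5.27 and 6.64 in the compound mutant, 6.48 to 23.3 in wild type and 16.0 to 43.4 in Cilk1-/-. Erythroid markers (8 of 8 listed) summed to 1060 in compound mutant replicate 3, against 2889 to 4181 in the other 10 libraries. In pooled tissue, fewer cells of a type cannot be told apart from less RNA per cell. The labels also form 2 sets of libraries, and the compound mutant occurs only in the second, beside 1 wild-type and 1 Cilk1-/- library.

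**Figure D1:**
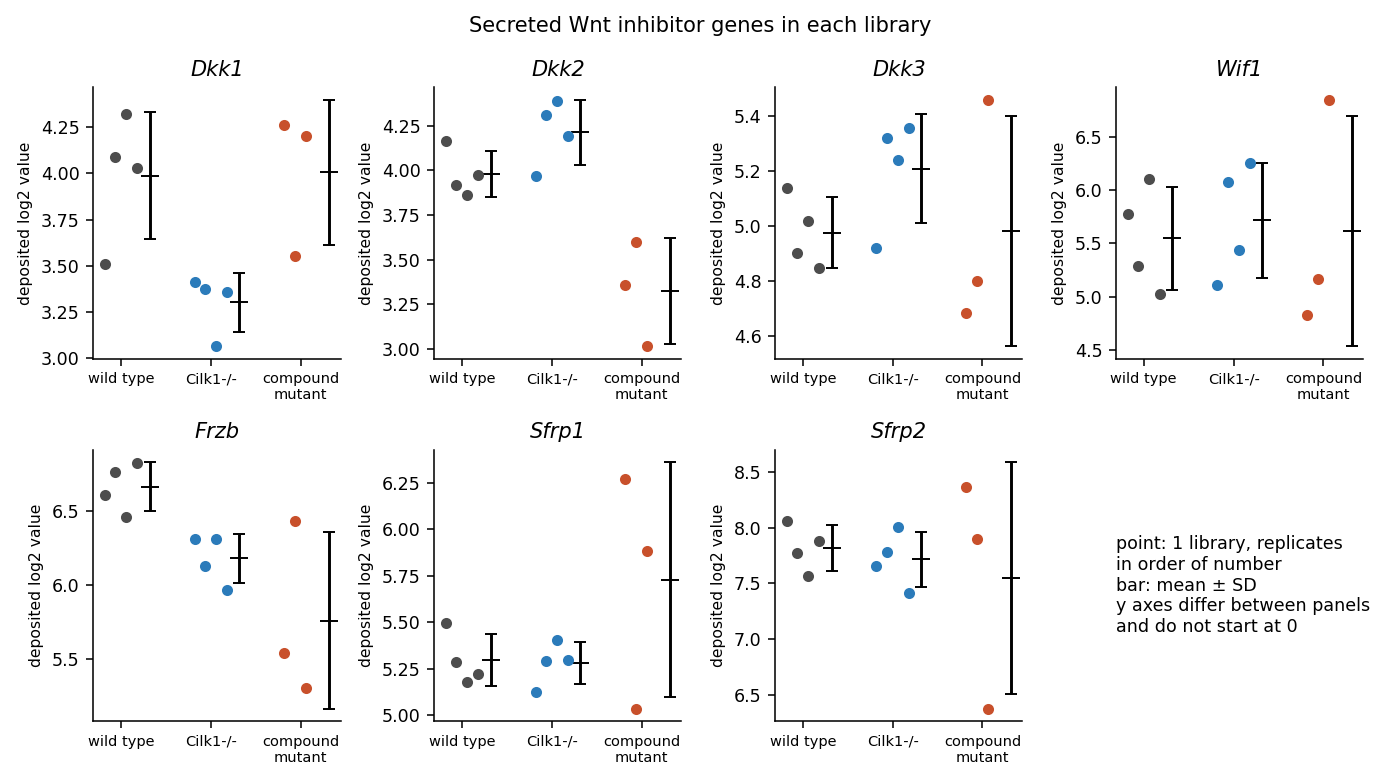
Deposited log2 value of each inhibitor gene (y axis, a separate scale per panel, not starting at 0) in each library by genotype, in order of replicate number, with the mean and SD beside the points. *Dkk1* was lower in all 4 Cilk1-/- libraries than in any other, *Dkk2* was lowest in the 3 compound mutant libraries, and *Frzb* was below wild type in every library of both mutants.

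The genotypes were compared to ask how loss of *Cilk1*, alone or with the *Shh* enhancers, was accompanied by changes in these inhibitors. A gene was called when its adjusted p-value was under 0.05 (limma, Benjamini-Hochberg over all genes) and its fold change at least 1.5. In Cilk1-/- against wild type, 0 of the 7 genes were called (0.37% of all genes were). At an unadjusted p under 0.05 (limma) there were 2, *Dkk1* and *Frzb*, against 20.7% of all genes, and *Dkk1* also passed the fold threshold (0.752% of all genes). *Dkk2* and *Frzb* were called in the compound mutant against wild type, both lower (0.633% of all genes were called lower, 1.25% in either direction), and they were also the 2 with an unadjusted p under 0.05 (26.7% of all genes). Against Cilk1-/-, *Dkk2* alone was called in the compound mutant, lower (0.388% of all genes were called lower, 0.543% in either direction). Here 2 genes, *Dkk1* and *Dkk2*, had an unadjusted p under 0.05 (23.2% of all genes), and both passed the fold threshold (2.09% of all genes). The libraries of 2 genes did not overlap in Cilk1-/- against wild type, both lower (10.7% of all genes), and likewise of 2 genes in the compound mutant against wild type (9.05%). Between the compound mutant and Cilk1-/-, 1 gene was lower without overlap (9.3%) and 1 higher (7.74%). The median difference of the 7 genes was -0.02, 0.00 and -0.17 in the 3 comparisons, and that of all genes 0.00 in each. The comparisons share their libraries in pairs and are not independent of each other.

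Replicate numbers were taken to pair wild type with Cilk1-/-, and each test was repeated with the replicate number as a block. Of the 7 genes, 0 were called in any comparison with this block, while the differences of the called genes kept their size. Over all genes the block left 2 calls lower and 2 higher in Cilk1-/- against wild type, 19 lower and 7 higher in the compound mutant against wild type and 2 lower in the compound mutant against Cilk1-/-, where 62, 209 and 91 genes were called without it. A compound mutant library has its place in the block by its number only.

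**Figure D2:**
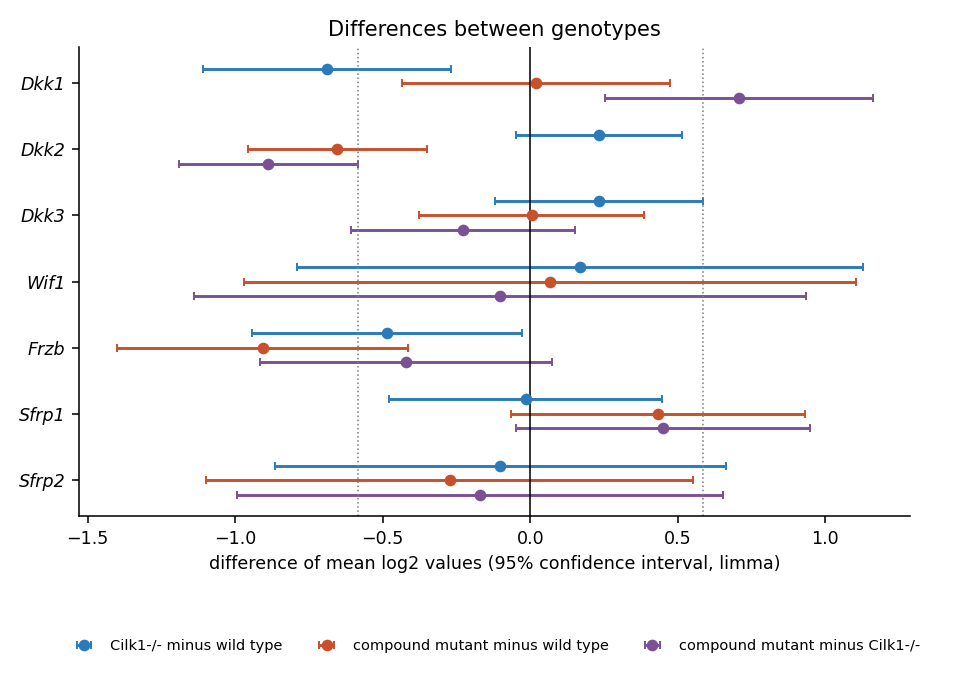
Difference of mean log2 values between genotypes (x axis) for each inhibitor gene, with the 95% confidence interval from limma; dotted lines stand at a fold change of 1.5. The intervals of *Dkk2* and *Frzb* in the compound mutant against wild type, of *Dkk1* and *Frzb* in Cilk1-/- against wild type, and of *Dkk1* and *Dkk2* in the compound mutant against Cilk1-/- exclude 0, before adjustment for the number of genes.

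*Dkk1*, an inhibitor that blocks Lrp5 and Lrp6, had values of 3.51, 4.09, 4.32 and 4.03 in wild-type replicates 1 to 4. In Cilk1-/- replicates 1 to 4 it was at 3.41, 3.37, 3.06 and 3.36, and in the compound mutant at 4.26, 3.55 and 4.20. All 4 Cilk1-/- libraries lay below all others, although wild-type replicate 1 exceeded the highest of them by only 0.0986 on the log2 scale. Cilk1-/- minus wild type was -0.69 ± 0.190 (SE), with an interval from -1.11 to -0.27, and did not pass the threshold (limma, adjusted p = 0.0826). The exact permutation test, which ignores the pairing, gave p = 0.0286 (two-sided, n = 4 and 4), the smallest that these group sizes allow. Within the pairs, *Dkk1* was lower in 4 of 4, by differences of -0.10, -0.72, -1.26 and -0.67, and the exact test that swaps genotypes within pairs gave its smallest possible p, 0.125. Replicates 1 to 3 and replicate 4, which belong to different sets of libraries, gave similar means, -0.69 and -0.67. *Dkk1* was called lower in some alternative fits, without wild-type replicate 1 (-0.85, limma, adjusted p = 0.0490) or without compound mutant replicate 2 (limma, adjusted p = 0.0330), and when none of the compound mutant libraries was in the fit (limma, adjusted p = 0.0212). With the replicate block the adjusted p was 0.260 (limma). Neuronal and glial marker sums were higher in every Cilk1-/- library than in any wild-type library, as given above, and their part in this difference was not tested.

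*Dkk1* in the compound mutant had nearly the wild-type mean, with a difference of 0.02 and an interval from -0.44 to 0.47 (limma, adjusted p = 0.967). It was above every Cilk1-/- library, by 0.71 ± 0.205 (SE) on average, with an interval from 0.25 to 1.16 (limma, adjusted p = 0.0828). Replicate 2 was the lowest of the 3, and without it the difference from Cilk1-/- was 0.93 and was called (limma, adjusted p = 0.0197).

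*Dkk2*, the other Lrp-binding member, showed its change in the compound mutant. Its values were 4.16, 3.92, 3.86 and 3.97 in wild type, 3.97, 4.31, 4.38 and 4.19 in Cilk1-/-, and 3.36, 3.60 and 3.02 in the compound mutant. All 3 compound mutant libraries lay below all 8 others, and the wild-type and Cilk1-/- ranges overlapped. The muscle marker sums given above were likewise low in the compound mutant and high in Cilk1-/-, with compound mutant replicate 3 just above the lowest wild-type sum, and their part in the *Dkk2* values was not tested. Against wild type the compound mutant was lower by 1.57-fold, a log2 difference of -0.65 ± 0.137 (SE) with an interval from -0.96 to -0.35 (limma, adjusted p = 0.0244). Against Cilk1-/- it was lower by 1.85-fold, a difference of -0.89 ± 0.137 (SE) with an interval from -1.19 to -0.59 (limma, adjusted p = 0.0125). Cilk1-/- itself differed from wild type by 0.23 ± 0.127 (SE), within an interval from -0.05 to 0.51 (limma, adjusted p = 0.329).

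With the replicate block, the *Dkk2* differences stayed at -0.66 and -0.89, but the adjusted p rose to 0.127 against wild type and 0.138 against Cilk1-/- (limma). Both calls were also lost when the set of libraries was a term (limma, adjusted p = 0.205 and 0.176). They were lost too with only the genotypes compared in the fit (limma, adjusted p = 0.0954 and 0.0990). Within the second set alone, which holds 1 wild-type and 1 Cilk1-/- library and allows no test, the compound mutant mean was lower by -0.65 and -0.87 on the log2 scale. The call against Cilk1-/- was made in all 11 fits that left out 1 library. The call against wild type was made in 7 of 11, and was lost without compound mutant replicate 3 (-0.50, limma, adjusted p = 0.0371, under the fold threshold) or wild-type replicate 1, 2 or 4 (limma, adjusted p of 0.0547, 0.0588 and 0.0701).

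The level of *Dkk2* relative to *Dkk1* was also computed, a contrast chosen after the values were seen and given without a test. *Dkk2* minus *Dkk1* was 0.65, -0.17, -0.46 and -0.06 in wild type, 0.56, 0.94, 1.32 and 0.84 in Cilk1-/-, and -0.91, 0.05 and -1.19 in the compound mutant. *Dkk2* exceeded *Dkk1* in all 4 Cilk1-/- libraries, and in 1 wild-type and 1 compound mutant library. The Cilk1-/- and compound mutant values did not overlap, and wild type overlapped both, with replicate 1, the lowest in *Dkk1*, within the Cilk1-/- range.

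**Figure D3:**
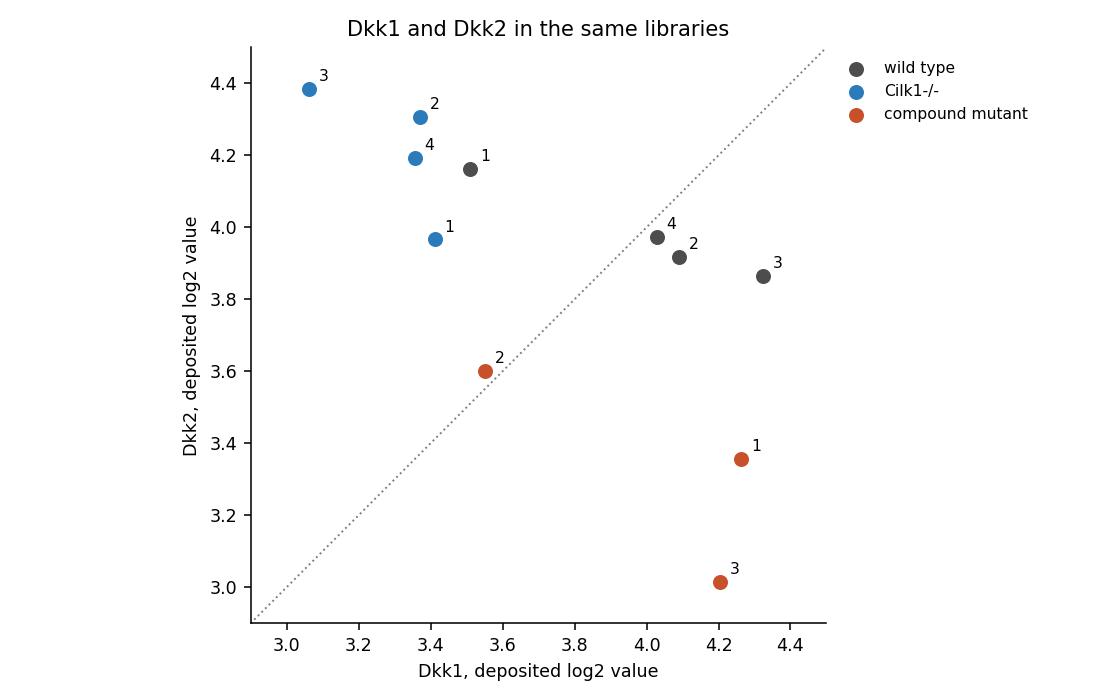
*Dkk1* (x axis) against *Dkk2* (y axis), deposited log2 values, 1 point per library, labelled with its replicate number; the dotted line marks equal values. The 4 Cilk1-/- libraries have *Dkk2* above *Dkk1*, with differences of 0.56 to 1.32, and in compound mutant replicates 1 and 3 the differences are -0.91 and -1.19.

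*Dkk3*, the divergent member, had values of 5.14, 4.90, 5.02 and 4.85 in wild type, 4.92, 5.32, 5.24 and 5.36 in Cilk1-/-, and 4.68, 4.80 and 5.46 in the compound mutant. The 3 ranges overlapped. The differences were 0.23 (interval -0.12 to 0.59) for Cilk1-/- against wild type, 0.00 (-0.38 to 0.39) for the compound mutant against wild type and -0.23 (-0.61 to 0.15) against Cilk1-/- (limma, adjusted p = 0.447, 0.992 and 0.453). The first and the last of these intervals just reach a 1.5-fold change.

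Among the genes whose products bind Wnt proteins, *Frzb* was the only one called in the main fit, and most alternative fits that left out a library lost this call, as given below. It had values of 6.61, 6.76, 6.46 and 6.83 in wild type, 6.31, 6.13, 6.31 and 5.97 in Cilk1-/-, and 5.54, 6.43 and 5.30 in the compound mutant. Every mutant library of either genotype was below every wild-type library, although compound mutant replicate 2 was close to the lowest wild-type value. Against wild type the compound mutant was lower by 1.88-fold, a log2 difference of -0.91 ± 0.223 (SE) with an interval from -1.40 to -0.41 (limma, adjusted p = 0.0406). Cilk1-/- differed from wild type by -0.49 ± 0.207 (SE), from -0.94 to -0.03, and was not called (limma, adjusted p = 0.215). All 4 pairs were lower, with an exact within-pair p of 0.125, the smallest possible. The exact permutation test over the libraries, which ignores the pairing, gave p = 0.0286. The difference was -0.36 in replicates 1 to 3 and -0.86 in replicate 4. The higher neuronal and glial sums of Cilk1-/- stand beside this difference too, and their part in it was not tested. The compound mutant and Cilk1-/- overlapped, with a difference of -0.42 from -0.92 to 0.07 (limma, adjusted p = 0.281).

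The *Frzb* call in the compound mutant was near the threshold. With the replicate block the difference was -0.92 (limma, adjusted p = 0.148), and with the set of libraries as a term it was -0.88 (limma, adjusted p = 0.262). With only the genotypes compared in the fit it was -0.91 and also not called (limma, adjusted p = 0.148). The call held in only 1 of the 11 fits that left out 1 library, the one without compound mutant replicate 2 (-1.25, limma, adjusted p = 0.000945), and the highest adjusted p among the others was 0.112. Without replicate 1 and without replicate 3 the differences were -0.80 and -0.68 (limma, adjusted p = 0.1002 and 0.0734). Without replicate 2, *Frzb* was also called lower than in Cilk1-/- (-0.76, limma, adjusted p = 0.0104).

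The 3 libraries with the lowest *Frzb* included compound mutant replicates 1 and 3, which also had the lowest mesenchymal marker sums, and the third, Cilk1-/- replicate 4, had the third lowest sum. Of their own 3 lowest libraries, *Dkk2* and *Sfrp2* shared 2 with these, *Dkk1*, *Dkk3* and *Wif1* 1 and *Sfrp1* 0. *Frzb*, *Dkk2* and *Dkk1*, the genes with libraries that did not overlap, were therefore also set against the summed mesenchymal and the summed epithelial markers of their own library on the linear scale, measures chosen after the values were seen and given without a test. *Frzb* was 13.4% to 15.1% of the mesenchymal sum in wild type, 10.6% to 11.5% in Cilk1-/-, and 11.3%, 12.3% and 8.43% in the compound mutant, so both mutants were below wild type in every library on this measure. Against the epithelial sum the *Frzb* ranges overlapped, with 8.52% to 13.7% in wild type, 5.74% to 9.10% in Cilk1-/- and 3.48% to 12.3% in the compound mutant. *Dkk2* was 1.93% to 2.46% of the mesenchymal sum in wild type, 2.15% to 3.01% in Cilk1-/-, and 2.31%, 1.61% and 1.56% in the compound mutant, and 1.33% to 2.09%, 1.61% to 1.99% and 0.642% to 1.96% of the epithelial sum. The separation of *Dkk2* in the compound mutant was thus lost on both measures, and on the mesenchymal one it was replicate 1 that overlapped. *Dkk1* overlapped between wild type and Cilk1-/- against the mesenchymal sum (1.51% to 2.94% and 1.06% to 1.59%) but not against the epithelial sum (1.29% to 1.87% and 0.735% to 1.12%). Compound mutant replicate 2, whose mesenchymal sum was within the wild-type range, was at 3.60 for *Dkk2* against a lowest wild-type value of 3.86. Its epithelial sum, 696, was below the wild-type range, and its *Dkk2* was 1.60% of that sum, within the wild-type range. Its bone markers (7 of 7 listed) summed to 286, against 96.1 to 204 in wild type. The part of these tissues in its *Dkk2* value was not tested. Whether the marker genes themselves respond to the mutations was not tested.

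**Figure D4:**
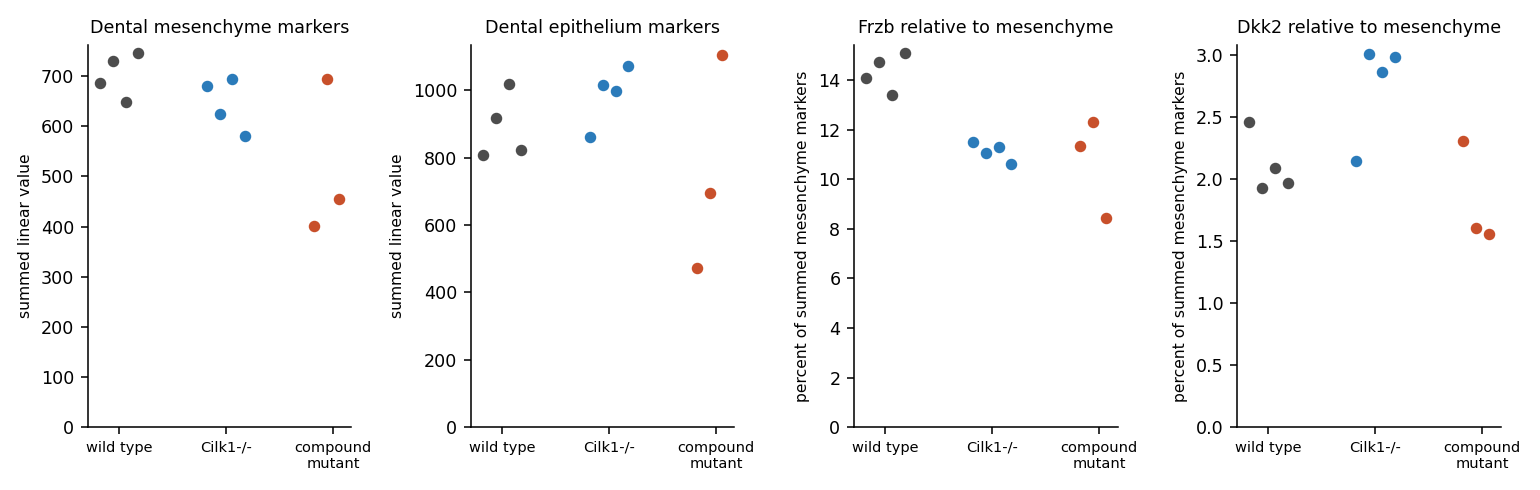
Summed linear levels of 6 dental mesenchyme and 6 dental epithelium markers per library, and *Frzb* and *Dkk2* as a percentage of the mesenchymal sum, by genotype and in order of replicate number (all y axes start at 0). *Frzb* was 13.4% or more in wild type and 12.3% or less in both mutants, whereas the *Dkk2* percentages of the compound mutant and wild type overlapped.

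*Sfrp1*, a Wnt-binding member with a Frizzled-like domain, was even between wild type and Cilk1-/-. It had values of 5.50, 5.29, 5.18 and 5.22 in wild type and 5.13, 5.29, 5.40 and 5.29 in Cilk1-/-, a difference of -0.02 with an interval from -0.48 to 0.44 (limma, adjusted p = 0.979). In the compound mutant it was 6.27, 5.03 and 5.88. Replicates 1 and 3 were above every library of the other genotypes and replicate 2 below them all. The differences of 0.43 ± 0.225 (SE) from wild type and 0.45 ± 0.225 from Cilk1-/- were not called (limma, adjusted p = 0.240 and 0.256). Without replicate 2 they were 0.78 and 0.80, and both were called higher (limma, adjusted p = 0.00396 and 0.00687). The neuronal and cartilage marker sums followed the same order in these libraries, highest in replicate 1 and lowest in replicate 2, whereas the epithelial sum and *Shh* were lowest in replicate 1 and highest in replicate 3. Their part in the *Sfrp1* values was not tested.

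*Sfrp2*, the member with the highest level, varied more within the compound mutant than between genotypes. It had values of 8.06, 7.77, 7.56 and 7.88 in wild type, 7.66, 7.78, 8.01 and 7.42 in Cilk1-/-, and 8.36, 7.90 and 6.37 in the compound mutant. Compound mutant replicate 1 was the highest and replicate 3 the lowest of the 11 libraries. The differences were -0.10, -0.27 and -0.17 in the 3 comparisons, with intervals from -0.87 to 0.66, -1.10 to 0.55 and -0.995 to 0.65 (limma, adjusted p = 0.910, 0.673 and 0.823). The first and the last of these intervals hold a 1.5-fold change in either direction. The second holds a 1.5-fold fall but ends just short of a 1.5-fold rise. The fit shares the wide spread of the compound mutant with the first comparison. With only wild type and Cilk1-/- in the fit, that difference was -0.10 ± 0.133 (SE).

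*Wif1*, the member with a WIF domain, had the widest spread of the members in every genotype, although in the compound mutant *Sfrp2* was close (SD 1.08 and 1.04). It had values of 5.78, 5.28, 6.11 and 5.03 in wild type, 5.10, 6.08, 5.44 and 6.26 in Cilk1-/-, and 4.83, 5.17 and 6.85 in the compound mutant. The SD of 0.485 in wild type exceeded that of 99.6% of all genes, and the median gene had an SD of 0.0748. The differences were 0.17, 0.07 and -0.10, with intervals from -0.79 to 1.13, -0.97 to 1.10 and -1.14 to 0.93 (limma, adjusted p = 0.875, 0.945 and 0.925). The pairs of wild type and Cilk1-/- went in both directions, with -0.67, 0.79, -0.67 and 1.23. The 4 libraries with the highest *Wif1* (compound mutant replicate 3, Cilk1-/- replicates 4 and 2 and wild-type replicate 3) were also the 4 with the highest epithelial marker sums, and compound mutant replicate 3 had the highest *Shh* as well. Of their own 4 highest libraries, *Dkk3* shared 3 with these, *Dkk1* and *Dkk2* 2, *Frzb* and *Sfrp1* 1 and *Sfrp2* 0. The part of the epithelial markers and of *Shh* in the *Wif1* values was not tested.

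Compound mutant replicates 1 and 3 were at opposite ends for several of these genes. Replicate 1 had the highest *Sfrp1* and *Sfrp2* and the lowest *Dkk3* and *Wif1* of the 11 libraries. Replicate 3 had the highest *Dkk3* and *Wif1* and the lowest *Dkk2*, *Frzb* and *Sfrp2*. The markers of epithelium, cartilage and neurons and *Shh* also differed between these libraries, as given above, and their part in the values was not tested.

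Summed on the linear scale, the 7 genes came to 442 to 521 in wild type, 400.1 to 482 in Cilk1-/- and 530, 438 and 360 in the compound mutant, so the totals of the genotypes overlapped. *Sfrp2* made up 42.6% to 50.9% of the sum in wild type and 41.2% to 53.1% in Cilk1-/-. Its part ranged from 22.7% to 62.0% in the compound mutant, where *Wif1* reached 31.8% in replicate 3. *Frzb* made up 18.5% to 23.8% in wild type, 14.9% to 19.6% in Cilk1-/- and 8.58%, 19.5% and 10.7% in the compound mutant. *Dkk1* and *Dkk2* contributed at most 4.84% and 4.20% of the sum in any library.

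**Figure D5:**
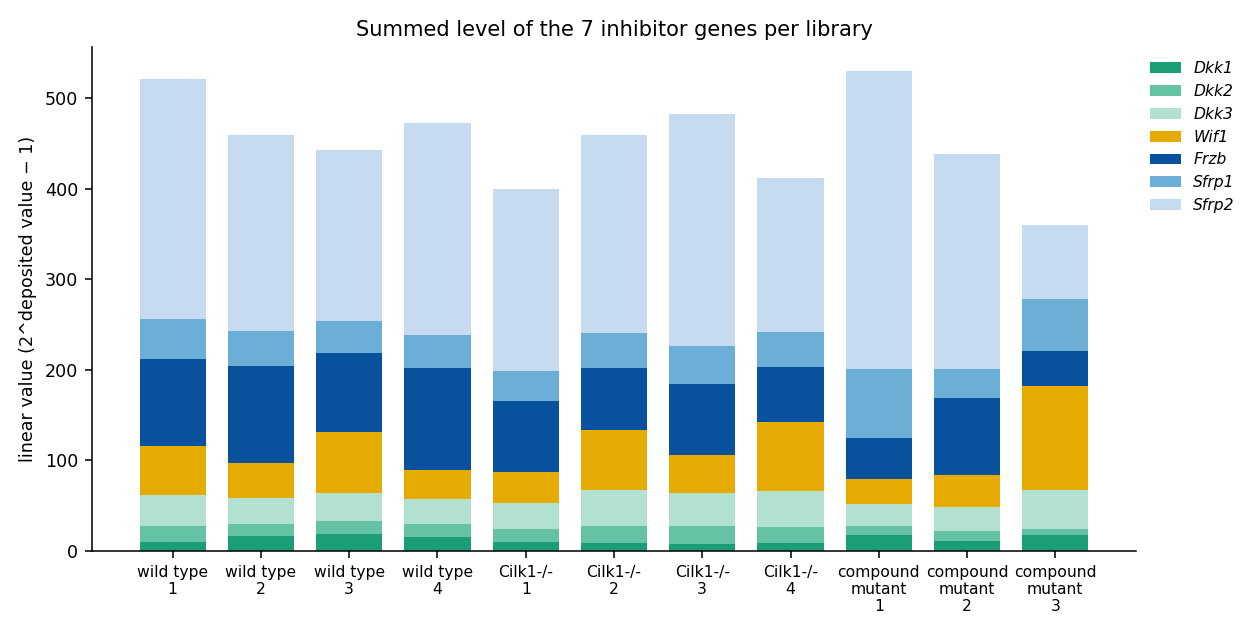
Linear value (y axis, 2 to the power of the deposited value, minus 1) of the 7 genes, stacked per library. The stacks range from 360 to 530, *Sfrp2* is the largest segment in 10 of 11 libraries, and *Wif1* is the largest in compound mutant replicate 3.

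Of the 12 other extracellular Wnt inhibitors listed, 0 were called in Cilk1-/- against wild type, 2 in the compound mutant against wild type, both lower, and 0 in the compound mutant against Cilk1-/- (0.37%, 1.25% and 0.543% of all genes were called, and 0.633% lower in the second). *Sostdc1*, an inhibitor of Bmp and Wnt signals in the tooth germ, was 7.34 ± 0.0315 in wild type (SD, n = 4), 6.60 ± 0.210 in Cilk1-/- (n = 4) and 6.02 ± 0.487 in the compound mutant (n = 3). Its difference was -1.31 in the compound mutant against wild type (limma, adjusted p = 0.00622, and 0.0341 with the replicate block, still called) and -0.74 in Cilk1-/- (limma, adjusted p = 0.0545). *Sost*, which encodes the Lrp-binding sclerostin, had a low level, at 0.68 to 1.12 in wild type and 0.03 to 0.48 in the compound mutant, a difference of -0.67 (limma, adjusted p = 0.0357, and 0.157 with the replicate block, no longer called). *Igfbp4*, which can also bind Lrp6, had a difference of -0.37 in Cilk1-/- (limma, adjusted p = 0.0151, and 0.134 with the replicate block), which is under the fold threshold. *Dkk4*, the remaining Lrp-binding Dkk, was at 2.12 ± 0.292, 1.71 ± 0.346 and 1.92 ± 0.522 (SD, n = 4, 4 and 3), and none of its differences passed the test.

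None of the listed genes for the proteins that these inhibitors act on was called in any comparison. Of 19 Wnt ligand genes 16 were listed and 0 called, and of 18 receptor and co-receptor genes 18 were listed and 0 called. Of all genes, 0.37%, 1.25% and 0.543% were called in the 3 comparisons, so lists of this length cannot show a lack of calls. The co-receptors *Lrp5* and *Lrp6* were at 4.87 and 4.19 in wild type, 4.73 and 4.30 in Cilk1-/- and 4.95 and 4.14 in the compound mutant. *Kremen1* was at 4.45, 4.60 and 4.66 and *Kremen2* at 3.60, 3.64 and 3.27. The ligand with the smallest p-value was *Wnt5b* in both compound mutant comparisons, at 0.33 above wild type and 0.35 above Cilk1-/- (limma, adjusted p = 0.0228 and 0.0305, and 0.150 and 0.204 with the replicate block, under the fold threshold), and *Wnt16* in Cilk1-/- (0.31, limma, adjusted p = 0.246). Among the receptors it was *Fzd7* in Cilk1-/- (-0.23, limma, adjusted p = 0.0688), *Fzd10* in the compound mutant against wild type (-0.41, limma, adjusted p = 0.0252, and 0.127 with the replicate block, under the fold threshold) and *Ror1* against Cilk1-/- (-0.48, limma, adjusted p = 0.0527). At an unadjusted p under 0.05 (limma) and a fold change of at least 1.5, *Wnt2* (-0.96) and *Fzd9* (1.20) passed in the compound mutant against wild type. *Fzd9* (0.93) also passed against Cilk1-/-. Of all genes, 2.98% and 2.09% did in these comparisons.

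Of 9 R-spondin and receptor turnover genes and 11 readouts of Wnt/beta-catenin signalling, all were listed and 0 were called in any comparison. The shares of all genes called were 0.37%, 1.25% and 0.543%, so these lists are too short to show a lack of calls. *Axin2*, a feedback target of the pathway, was at 4.18 ± 0.111 in wild type, 4.36 ± 0.135 in Cilk1-/- and 4.26 ± 0.246 in the compound mutant (SD, n = 4, 4 and 3). *Lef1* was at 4.66, 4.89 and 4.71. The smallest p-values belonged to *Lgr6* in both mutants against wild type (-0.32 and -0.26, limma, adjusted p = 0.107 and 0.159), *Lgr5* in the compound mutant against Cilk1-/- (-0.47, limma, adjusted p = 0.331) and *Tcf7* in Cilk1-/- (-0.58, limma, adjusted p = 0.244). *Nkd1*, a feedback inhibitor inside the cell, was 0.37 higher in the compound mutant than in wild type (limma, adjusted p = 0.0240, and 0.127 with the replicate block), under the fold threshold, and 0.24 higher than in Cilk1-/- (limma, adjusted p = 0.106). At an unadjusted p under 0.05 (limma) and a fold change of at least 1.5, *Lgr5* (0.63) passed in Cilk1-/- against wild type. *Ccnd1* (0.59) passed in the compound mutant against wild type. Of all genes, 0.752% and 2.98% did in these comparisons.

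The genes whose values were most like those of each member were found by Pearson's r over the 11 libraries among the 13028 genes with a mean of at least 1. These coefficients are descriptions, since the libraries share genotypes and a few stand apart. For *Dkk1* they were *AA414768* (r = 0.954) and *Abhd6* (0.947), and for *Dkk2* *Arhgap18* (0.981) and *Scml2* (0.978). For *Dkk3* they were *Col7a1* (0.988) and *Duox1* (0.983), and for *Wif1* *Blnk* (0.963) and the ligand gene *Wnt10a* (0.957). For *Frzb* they were *Impact* (0.981) and *Fxyd7* (0.980), for *Sfrp1* *Myh14* (0.981) and *Tbc1d9* (0.974), and for *Sfrp2* *Enpep* (0.988) and *Vcam1* (0.970). No gene appeared in the lists of more than 1 member.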

How the data were processed

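Tooth germ RNA (TRIzol, poly-A selected) from 11 libraries was sequenced. The authors mapped the reads to mm10 with HISAT2 2.0.5 and counted them per gene with featureCounts 1.5.0-p3, per the labels. The deposited values are on a log2 scale, probably log2(FPKM + 1). Counts were not used here, the depth is unknown, and the replicate spread alone sets the precision. Differences on this scale understate the change of low genes.

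limma 3.58.1 (R 4.3.3; lmFit, and eBayes with trend and robust) was fitted to all 16755 genes and 3 genotypes at once, since the values are not counts, and was tested on simulated data. The genotypes thus shared 1 estimate of the spread per gene. The median SD of all genes was 0.0748 in wild type, 0.0730 in Cilk1-/- and 0.133 in the compound mutant. Intervals and p-values of the compound mutant comparisons may therefore be too small, and those of Cilk1-/- against wild type too large. With only wild type and Cilk1-/- in the fit, the SE of their difference was smaller for every member. For *Sfrp1* it was 0.0778 instead of 0.208. Single genes were also compared by exact permutation tests. Wild-type and Cilk1-/- deviations of one replicate number had correlations of -0.741 to -0.892 over all genes, and, in 84 genes with a same-number pair listed at 0 (that pair left out), 0.298 to 0.583, so the numbers were taken to pair these libraries. The labels name littermates but not what a number marks. If the authors removed a term for the number, which the sources do not say, p-values without the block are too small.

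Members and lists were chosen with earlier results of these data known. The genes named are all members, up to 3 called genes per Wnt list and comparison with the largest change (or the one with the smallest p), and the 2 genes most like each member. *Axin2*, *Lef1*, *Lrp5*, *Lrp6*, *Kremen1*, *Kremen2*, *Dkk4*, *Cilk1* and *Shh* were named for their role. *Wnt2*, *Fzd9* and *Ccnd1* were named because they passed the unadjusted p and the fold threshold. Alternatives were other thresholds, scalings, filters, pseudocounts, blocks and left-out libraries.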

Additional observations from a re-analysis of the deposited data

Results flagged for a closer look

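The *Dkk1* value of 3.06 in Cilk1-/- replicate 3 stood apart from the other 3 libraries of that genotype, which lay between 3.36 and 3.41, by a larger share of the group's range than Dixon's critical value at 95% for 4 samples. It was the only such value among 14 groups of 4 libraries, and chance alone marks about 1 in 20 groups. The same replicate number held the highest wild-type *Dkk1*, 4.32. Over all genes, the deviations of wild type and Cilk1-/- at this number were opposite too, with a correlation of -0.848, so this is not particular to *Dkk1*.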

How the results depend on the processing

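Of 420 single-gene values under alternatives, 361 kept their direction and side of the threshold, 26 lost a call, 7 gained one and 26 changed sign, and none of those that changed sign was a called difference. In Cilk1-/- against wild type, 1 gene (*Dkk1*) was called with an unadjusted p or with only the genotypes compared in the fit, and 0 to 1 when 1 library was left out. For the compound mutant against wild type, 0 genes were called with the replicate block, with a replicate block in which pair 4 takes in the compound mutant, with the set of libraries as a term, and with only the genotypes compared, and 0 to 3 when 1 library was left out. Against Cilk1-/-, 0 were called under the same 4 alternatives, 2 with an unadjusted p, and 1 to 4 when 1 library was left out. Among the 7 genes the replicate block changed no other call than those of *Dkk2* and *Frzb*.

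The values that changed sign were close to 0 or rested on 1 library. *Sfrp1* in Cilk1-/- against wild type was 0.032 after quantile normalization and -0.058 to 0.051 with 1 library left out. For the compound mutant against wild type, *Dkk1* was -0.031 with the compound mutant in pair 4 or the set as a term, -0.0013 after median centring, and -0.14 to 0.25 with 1 library left out, and *Dkk3* was -0.0051, -0.0051 and -0.014 under the same alternatives and -0.23 to 0.15 with 1 library left out. Leaving out 1 library moved *Wif1* from -0.011 to 0.37, from -0.55 to 0.46 and from -0.72 to 0.29 in the 3 comparisons, and *Sfrp2* from -0.68 to 0.31 against wild type and from -0.58 to 0.42 against Cilk1-/- in the compound mutant. The depth of the libraries is unknown, and the cause of these shifts was not tested. Over all genes, calls (36 lower and 26 higher, 106 and 103, and 65 and 26 in the 3 comparisons) became 2 and 2, 0 and 0, and 0 and 0 with pair 4 taking in the compound mutant, 23 and 14, 13 and 5, and 1 and 0 with the set as a term, 59 and 71, 22 and 12, and 1 and 0 with only the genotypes compared, and 53 and 70, 278 and 269, and 216 and 78 with a pseudocount of 0.1.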
